A study of Mus musculus with 4 samples.

Results

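Elane, Prtn3, Ctsg, Mpo, Ms4a3 and Hp, 6 genes of primary granules and promyelocytes, were compared between lineage-negative bone marrow of Mtg16-null mice and of wild-type mice. They were chosen by name, with earlier results of these data known. They are 6 of the 13840 genes with a probe that carried a single gene symbol. Each of them had 1 such probe, and all 6 were among the 8445 genes bright enough to be tested. Mtg16, listed as Cbfa2t3, encodes a transcriptional corepressor of the ETO family. Lineage depletion on magnetic columns removes cells that carry surface markers of mature blood lineages, and the remaining marrow is rich in stem cells and progenitors. There were 2 Mtg16-null arrays and 2 wild-type arrays, and each of the 2 array lots held both genotypes once, and each RNA came from the pooled marrow of 4 female mice aged 8 to 12 weeks. The null mice were backcrossed into C57BL/6 to generation 4 (labelled N4) and the wild-type mice were C57BL/6. Parts of the genome, around the targeted gene and on other chromosomes, may therefore still differ in strain. The labels do not say how the allele was made or whether the 2 arrays of a genotype came from separate pools, and the p-values below then measure the spread between these arrays, which may be technical.

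Neutrophils build their granules in a fixed order during maturation in the marrow. Promyelocytes make the primary (azurophil) granules and fill them with myeloperoxidase and serine proteases, whose transcripts are shut off as the cells become myelocytes. Myelocytes and metamyelocytes then make specific granules, and the latest stages make gelatinase granules. In bulk RNA a larger number of promyelocytes and more transcript per promyelocyte cannot be told apart.

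The 250 bases before the annotated start of Elane, Prtn3, Ctsg, Mpo and Ms4a3 are shown because 4 of these 5 genes were brighter together in the null arrays. The 4 were Elane, Prtn3, Ctsg and Ms4a3. The sources used here held no such stretch for Hp. The stretches shown come from RefSeq, build GRCm38.p6, each on the strand of its gene. The stretches are chr10:79886062-79886311 (plus strand) for Elane, chr10:79879417-79879666 (plus) for Prtn3, chr14:56102575-56102824 (minus) for Ctsg, chr11:87793534-87793783 (plus) for Mpo and chr19:11640852-11641101 (minus) for Ms4a3. Capitals mark matches, on either strand, to AGGAAGT (PU.1 and other ETS factors), AACGG (Myb), TGTGGT (Runx) and TTGCNNAA (C/EBP), which do not overlap each other here.
Elane: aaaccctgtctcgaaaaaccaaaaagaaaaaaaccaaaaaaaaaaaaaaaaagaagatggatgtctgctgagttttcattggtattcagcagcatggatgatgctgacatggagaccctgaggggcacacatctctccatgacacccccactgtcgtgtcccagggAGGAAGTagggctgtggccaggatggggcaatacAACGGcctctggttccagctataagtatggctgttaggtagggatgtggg
Prtn3: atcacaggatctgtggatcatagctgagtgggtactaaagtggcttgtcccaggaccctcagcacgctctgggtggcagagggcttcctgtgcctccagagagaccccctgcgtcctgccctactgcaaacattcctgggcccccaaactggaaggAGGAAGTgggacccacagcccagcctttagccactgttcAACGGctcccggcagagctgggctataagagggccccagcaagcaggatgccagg
Ctsg: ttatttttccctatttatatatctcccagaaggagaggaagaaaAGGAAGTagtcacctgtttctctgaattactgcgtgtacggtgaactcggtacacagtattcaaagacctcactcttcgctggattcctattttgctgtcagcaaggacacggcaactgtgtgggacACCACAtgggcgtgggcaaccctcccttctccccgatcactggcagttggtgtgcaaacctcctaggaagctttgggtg
Mpo: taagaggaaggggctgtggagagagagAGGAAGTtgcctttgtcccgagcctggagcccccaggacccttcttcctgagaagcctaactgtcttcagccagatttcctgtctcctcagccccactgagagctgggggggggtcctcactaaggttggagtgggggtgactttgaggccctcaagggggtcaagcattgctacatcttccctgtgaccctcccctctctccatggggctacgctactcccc
Ms4a3: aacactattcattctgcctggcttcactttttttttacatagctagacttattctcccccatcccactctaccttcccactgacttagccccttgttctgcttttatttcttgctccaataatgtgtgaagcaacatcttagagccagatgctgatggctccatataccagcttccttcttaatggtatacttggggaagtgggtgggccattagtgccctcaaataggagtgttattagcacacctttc

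AGGAAGT occurred in 4 of the 5 promoters, those of Elane, Prtn3, Ctsg and Mpo, and in 7.69% of all 32851 RefSeq promoter stretches of the same length. In Elane it began 84 bases before the start and was followed by AACGG at 50 bases before the start. Prtn3, the next coding gene on chromosome 10, had the same 2 motifs in the same order and on the same strand, at 94 and 55 bases. AACGG was in 14.5% of all promoters and TGTGGT in 14.0%. Of the 5, Ctsg held TGTGGT, 79 bases before the start on the opposite strand (ACCACA). TTGCNNAA, present in 9.56% of all promoters, matched none of the 5, and Ms4a3 matched no motif. These motifs were picked with the 5 sequences in view, and a match describes letters, not binding. Whether the motifs bear on the differences between genotypes was not tested.

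All 6 genes were bright in both genotypes, with all 24 values above the array median of 470 signal units. Signal is the deposited probe intensity on a linear scale, already normalized to a common distribution over the 4 arrays, and it cannot be compared between probes. Log2 differences below are null minus wild type from limma with genotype as the only term, with a standard error (SE) of the moderated fit, and p-values were adjusted by Benjamini and Hochberg's method across the 8445 genes, with a threshold of 0.05.

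The serine protease genes were 3.24-fold to 4.70-fold brighter in the null arrays. Elane encodes neutrophil elastase, the primary granule protease that is mutated in human cyclic and severe congenital neutropenia. Its signal was 537679 and 443379 units in the null arrays, against 116419 and 92883 units in the wild-type arrays. Both null arrays lay far above both wild-type arrays, by 4.70-fold on average (log2 difference 2.23, SE 0.22, 95% interval 1.62 to 2.84, limma adjusted p = 0.0744). Lot 1 gave 2.21 and lot 2 gave 2.26, and 15 of the 8445 tested genes had a larger one.

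Prtn3 encodes proteinase 3, the autoantigen of human granulomatosis with polyangiitis. It read 1232319 and 1486325 units in the null arrays, against 405942 and 430446 units in the wild-type arrays. The groups did not overlap, and the log2 difference was 1.69 (3.24-fold, SE 0.19, limma adjusted p = 0.0847), with 1.60 in lot 1 and 1.79 in lot 2. Prtn3 was the 1 gene of the 6 that was brighter in lot 2 than in lot 1, which held in both genotypes.

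Ctsg encodes cathepsin G, a chymotrypsin-like protease of the same granules that mast cells express too. Its signal was 341000 and 306652 units in the null arrays, against 104876 and 72082 units in the wild-type arrays. The groups were again apart. The log2 difference was 1.89 (3.72-fold, SE 0.26, limma adjusted p = 0.0975), with 1.70 in lot 1 and 2.09 in lot 2.

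Mpo encodes myeloperoxidase, the haem enzyme that makes hypochlorous acid from hydrogen peroxide and chloride. It read 1703094 and 973204 units in the null arrays, against 993744 and 951401 units in the wild-type arrays. Null array 1 stood alone, while null array 2 fell between the wild-type arrays, so the groups overlapped. The log2 difference was 0.40 (SE 0.33, 95% interval -0.49 to 1.30, limma adjusted p = 0.651), with 0.78 in lot 1 and 0.03 in lot 2. Without null array 1 it was 0.001, and without null array 2 it was 0.81. The Mpo probe was the 7th brightest of 33012 probes on null array 1 and the 116th on null array 2, against the 111th and 122nd on the wild-type arrays, and the part of brightness in this result was not tested.

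Ms4a3 encodes a tetraspanning membrane protein of the MS4A family that marks granulocyte-monocyte progenitors in mice. Its signal was 246481 and 211870 units in the null arrays, against 54884 and 44197 units in the wild-type arrays. The null arrays were both above the wild-type arrays, at a log2 difference of 2.21 (4.64-fold, SE 0.21, limma adjusted p = 0.0744), with 2.17 in lot 1 and 2.26 in lot 2.

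Hp encodes haptoglobin, the haemoglobin-binding plasma protein of the liver, which developing human neutrophils also make and store in specific rather than primary granules. It read 69057 and 64561 units in the null arrays, against 29854 and 23062 units in the wild-type arrays. The groups did not overlap, and the log2 difference was 1.35 (2.54-fold, SE 0.21, limma adjusted p = 0.104), with 1.21 in lot 1 and 1.49 in lot 2. Hp lies on chromosome 8, as does Cbfa2t3, and the other 5 genes lie on other chromosomes.

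**Figure D1:**
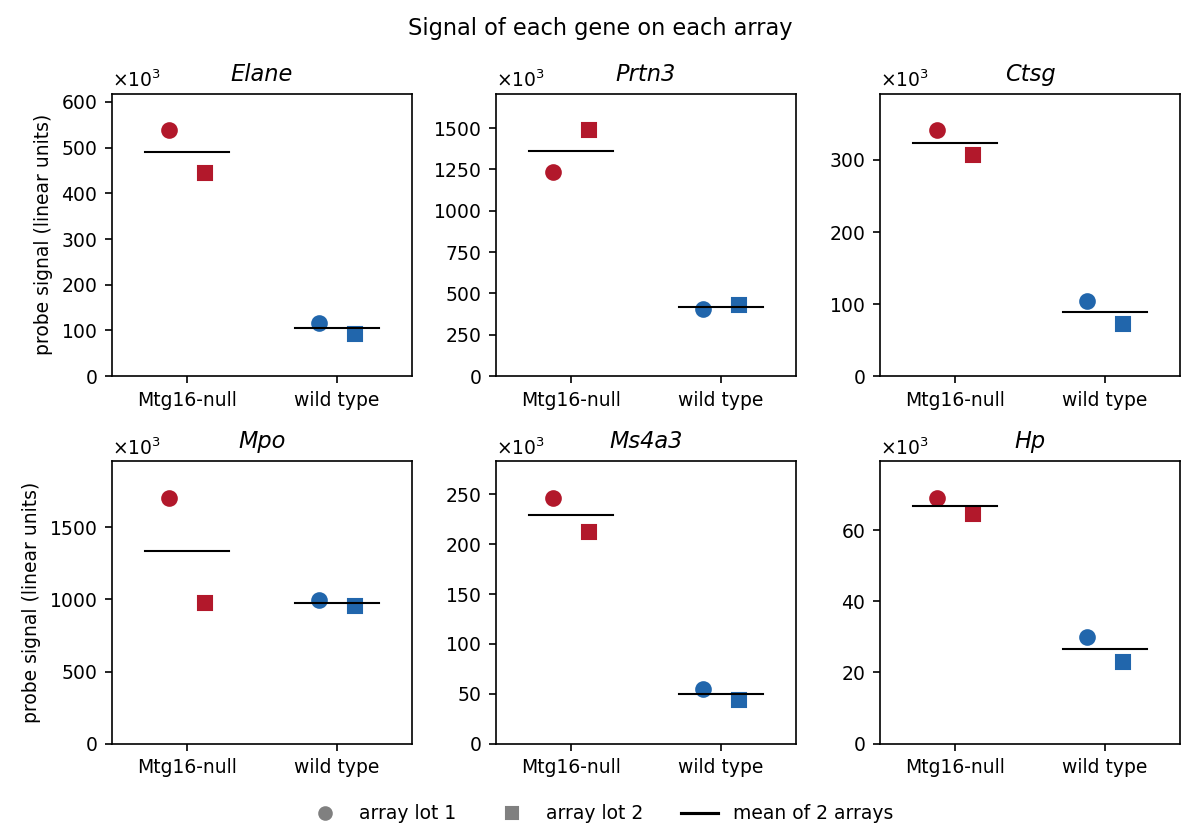
Signal in linear units (vertical axes, each from 0) of the 6 genes on the 2 Mtg16-null arrays (left, red) and the 2 wild-type arrays (right, blue); circles are array lot 1, squares lot 2 and bars the mean of 2 arrays. For 5 genes both null arrays sit above both wild-type arrays, and for Mpo null array 2 (973204 units) lies between the wild-type arrays.

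Counted together, 0 of the 6 genes passed the limma threshold after adjustment, and 5 had an unadjusted p under 0.05. Over all 8445 genes, 0 (0%) passed as higher in the null arrays and 10 (0.118%) as lower, while 9.65% were higher at an unadjusted p under 0.05. With the array lot as a block 0 genes passed in either direction. The 5 genes other than Mpo passed under 2 other settings of the fit. With a variance trend, 5 of 6 passed as higher, against 2.14% of all genes, with adjusted p-values of 0.00905 for Ms4a3, 0.00978 for Elane, 0.0136 for Prtn3, 0.0186 for Ctsg and 0.0245 for Hp. With the brightest 25% of probes, 5 of 6 passed, against 3.83% of all genes. With 2 arrays against 2, an exact permutation test over arrays cannot go below p = 0.333.

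In both lots 5 of the 6 genes were higher by at least 2-fold, against 3.26% of all tested genes. In 5 of 6 both null arrays lay above both wild-type arrays, against 22.6% of all tested genes. The 6 genes were chosen with earlier results of these data known, so these shares only describe them. The median log2 difference of the 6 was 1.79, and that of all tested genes was -0.02. Elane and Ms4a3 had the largest differences, followed by Ctsg, Prtn3, Hp and Mpo. Neighbours in this order had overlapping 95% intervals, and of the 15 pairs the intervals were apart in 2, Elane against Mpo and Ms4a3 against Mpo. Overlap of intervals is no test of whether genes measured on the same arrays differ, and no such test was run. The Elane difference exceeded the Mpo difference by 1.43 in lot 1 and 2.22 in lot 2 on the log2 scale. The Ctsg difference exceeded it by 0.92 and 2.06, and the Prtn3 difference by 0.82 and 1.76, though these intervals overlapped that of Mpo.

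**Figure D2:**
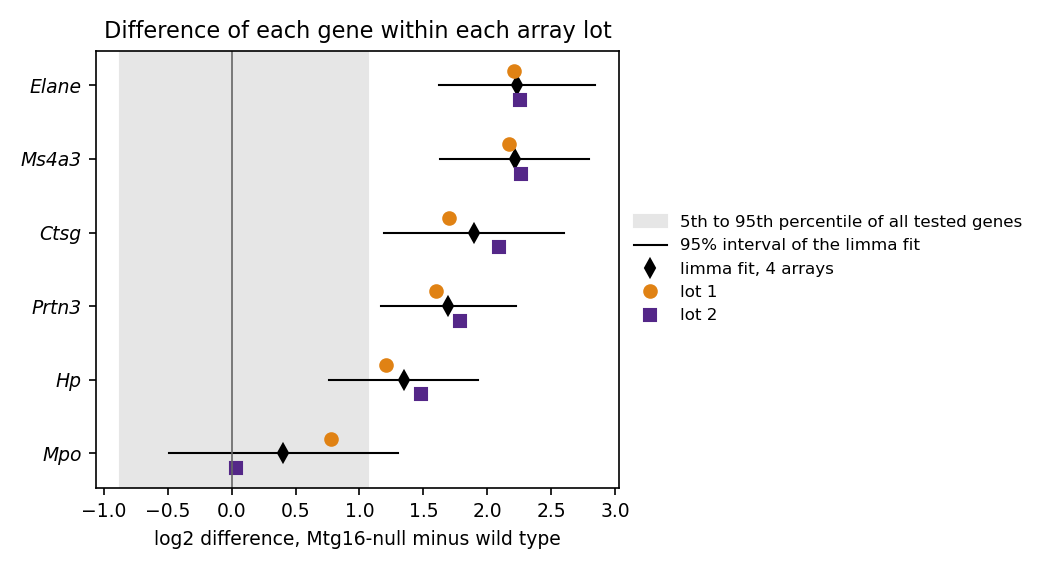
Log2 difference, null minus wild type (horizontal axis), of each gene in array lot 1 (circles), in lot 2 (squares) and in the limma fit over 4 arrays (diamonds, with 95% intervals); the grey band holds the 5th to 95th percentile of all tested genes, -0.87 to 1.07. The fitted differences of 5 genes lie above the band, and that of Mpo (0.40) lies inside it.

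Leaving out 1 array moved the differences of the 5 genes little. Elane ran from 2.07 to 2.39, Ms4a3 from 2.06 to 2.37, Ctsg from 1.62 to 2.17, Prtn3 from 1.56 to 1.83 and Hp from 1.16 to 1.53. All of these stayed above 1 on the log2 scale, and 0 genes of the whole table passed the test with any 1 array left out.

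**Figure D3:**
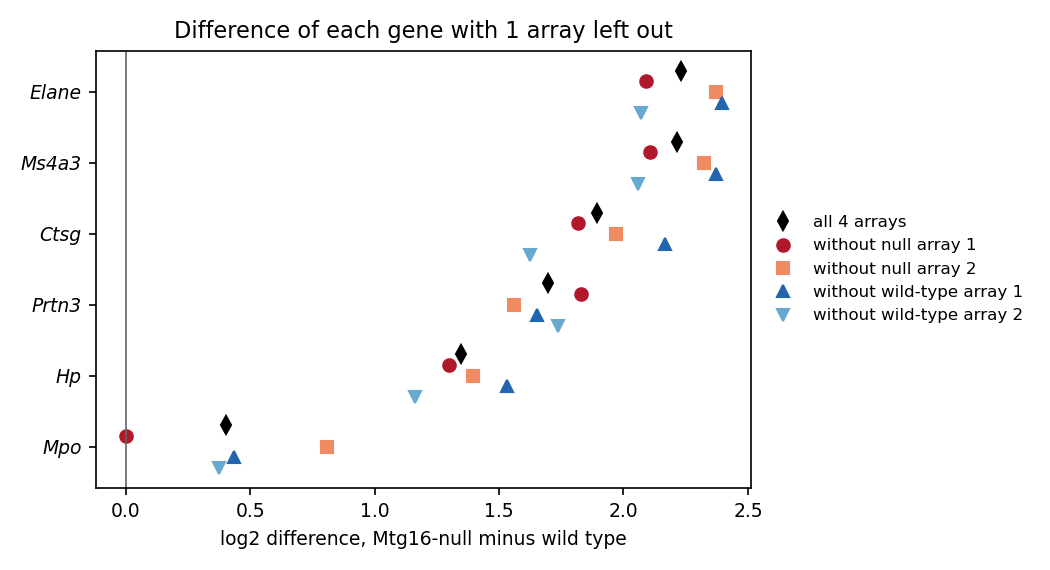
Log2 difference, null minus wild type (horizontal axis), of each gene over all 4 arrays (black diamonds) and with each null or wild-type array left out in turn (coloured symbols). Mpo moves from 0.001 without null array 1 to 0.81 without null array 2, while the other 5 genes stay above 1.

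The check of the targeted gene gave no fall in the null arrays. The Cbfa2t3 probe read 95520 and 118572 units in the null arrays, against 80854 and 100256 units in the wild-type arrays (log2 difference 0.24, limma adjusted p = 0.702). Where this probe lies relative to the altered part of the gene is not given in the sources used here, so the directions in this text rest on the labels. Among markers of the labelled tissue, the progenitor gene Kit read 34022 and 41866 units in the null arrays, against 39213 and 47408 units in the wild-type arrays (log2 difference -0.19, limma adjusted p = 0.756). Cd34, another progenitor gene, read 42939 and 41215 units in the null arrays, against 16790 and 13518 units in the wild-type arrays (log2 difference 1.48, limma adjusted p = 0.0975). Of the T cell genes, Cd3e read 261 and 164 units in the null arrays, against 120 and 325 units in the wild-type arrays, all below the array median of 470 units. Cd3g read 522 and 601 units in the null arrays, against 739 and 489 units in the wild-type arrays, all above that median. Cd34, Cd3e and Cd3g were named outside the rule given below, and the B cell genes Ms4a1 and Cd79a after their values were seen. Ms4a1 read 68.0 and 143 units in the null arrays, against 1444 and 1767 units in the wild-type arrays. Cd79a read 2530 and 1873 units in the null arrays, against 2325 and 1226 units in the wild-type arrays. Whether depletion was equal in both genotypes was not tested.

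Genes that serve the primary granule were followed through a list of 13, of which 11 had a probe and 9 were tested. By limma 0 of the 9 passed (4 at an unadjusted p under 0.05, against 16.5% of all tested genes). Higher by at least 2-fold in both lots were 2, against 3.26% of all tested genes, and the median log2 difference was 0.36. The 2 were Ctsc, the dipeptidyl peptidase that activates the granule serine proteases (1.13, adjusted p = 0.101), and Calr, calreticulin, a chaperone of myeloperoxidase (1.18, adjusted p = 0.117). Srgn, the proteoglycan that packs granule proteases, and Lyz2, lysozyme, were picked after their values were seen. Srgn read 546769 and 534745 units in the null arrays, against 297137 and 298697 units in the wild-type arrays (log2 difference 0.86). Lyz2, which monocytes and macrophages express too, read 152019 and 131465 units in the null arrays, against 152850 and 125765 units in the wild-type arrays (0.03, adjusted p = 0.971). Lyz2 thus joined Mpo among the granule genes whose groups overlapped, as did Lyz1 (0.02), Ap3b1 (0.15) and Canx (0.05) of this list. Both null arrays lay above both wild-type arrays for 5 of the 9, against 22.6% of all tested genes. The largest difference of the list was that of Rab27a (1.54, adjusted p = 0.200). Lyz1, Ap3b1, Canx and Rab27a were also named after their values were seen.

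Other genes expressed by promyelocytes and early myeloid progenitors had higher values in the null arrays, though 0 of 7 tested passed limma. All 7 had an unadjusted p under 0.05, against 16.5% of all tested genes. Both null arrays lay above both wild-type arrays for all 7, against 22.6% of all tested genes. Higher by at least 2-fold in both lots were 5, against 3.26% of all tested genes. The median log2 difference was 1.48, with a range of 0.74 to 1.81. Clec5a, a myeloid C-type lectin receptor, read 3388 and 3494 units in the null arrays, against 794 and 1210 units in the wild-type arrays (1.81, adjusted p = 0.101). Trem3, a myeloid triggering receptor, had a log2 difference of 1.59 (adjusted p = 0.0850).

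Inhibitors of the granule proteases were tested for 5 of 8 listed genes, with a median log2 difference of 0.41 and 0 past the limma test. At an unadjusted p under 0.05 were 2 of the 5, against 16.5% of all tested genes. Slpi, the secretory inhibitor of elastase and cathepsin G, read 148183 and 128433 units in the null arrays, against 50872 and 37035 units in the wild-type arrays (1.67, adjusted p = 0.0975). Serpinb1a, an intracellular serpin that inhibits elastase, proteinase 3 and cathepsin G, had a difference of 1.54 (adjusted p = 0.0975). The difference was -0.41 for Serpina3n, whose groups overlapped (adjusted p = 0.642).

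Of 10 tested regulators of granulocyte genes, 0 passed limma (7 at an unadjusted p under 0.05, against 16.5% of all tested genes). Both null arrays lay above both wild-type arrays for 9, against 22.6% of all tested genes. Gfi1, the repressor required for neutrophil maturation, read 19566 and 20320 units in the null arrays, against 4364 and 5831 units in the wild-type arrays (log2 difference 1.98, adjusted p = 0.0840). Cebpe, which acts at the change from promyelocyte to myelocyte, had a difference of 1.78 (adjusted p = 0.145), and Spi1, which encodes PU.1, one of 1.40 (adjusted p = 0.220). The differences were 1.10 for Cebpb, 1.06 for Cbfb, the partner of Runx proteins, 1.01 for Cebpa and 0.93 for Lef1, which activates ELANE in human progenitors. They were 0.80 for Cebpd and 0.75 for Myb. Csf3r, the receptor of granulocyte colony-stimulating factor, had overlapping groups and a difference of 0.05 (adjusted p = 0.957). The median of the list was 1.04.

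Genes of the granules made after the promyelocyte stage were followed through a pair of lists. Of 9 specific granule genes tested, 5 fell (Ltf, Ngp, Camp, Cd177 and Chil3) and 0 rose by limma, at a median log2 difference of -3.64. Over all 8445 tested genes, 10 (0.118%) fell and 0 (0%) rose by limma. Lactoferrin, encoded by Ltf, read 356 and 440 units in the null arrays, against 17026 and 16569 units in the wild-type arrays (adjusted p = 0.0228). Of 7 gelatinase granule and late neutrophil genes, Retnlg (-5.21, adjusted p = 0.0228) and S100a9 (-3.41, adjusted p = 0.0416) fell, against 0.118% of all tested genes. The median of this list was -2.11. These 7 calls were lost with the lot as a block or with any 1 array left out, when 0 genes passed in the whole table. Hp, stored in specific granules in humans, thus had the sign of the primary granule genes. Cyba, the small membrane subunit gene of the phagocyte oxidase, and Ltb4r1, the leukotriene B4 receptor, were not lower, with differences of 0.63 and 1.09. Cybb, the gene of the large membrane subunit of that oxidase (-0.02), Padi4, a peptidylarginine deiminase gene (0.15), and Itgam, the CD11b integrin gene (-0.05), had overlapping groups, and these 3 were named after their values were seen.

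**Figure D4:**
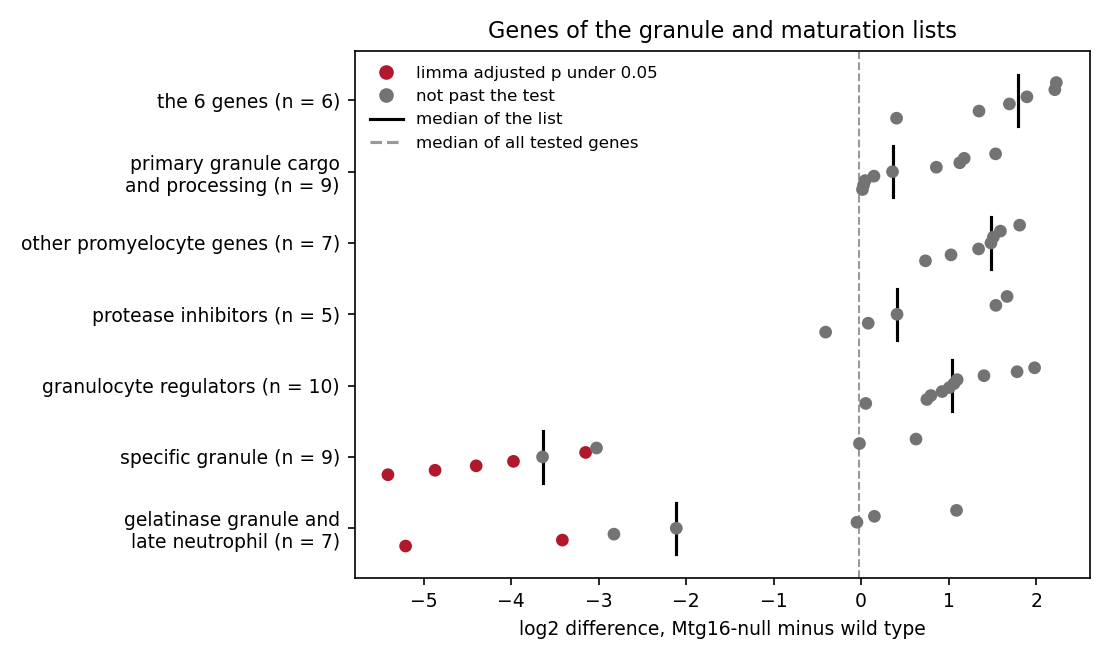
Log2 difference, null minus wild type (horizontal axis), of every tested gene of 7 groups (rows; 1 point per gene, black bar for the median, dashed line for the median of all tested genes, -0.02); red points have a limma adjusted p under 0.05. The 6 genes, other promyelocyte genes and regulators lie above 0, while 7 red points of the specific granule and late neutrophil rows lie below -3.

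Markers of other cells moved beside these genes, and their part in the results was not tested. All 3 tested eosinophil genes of 7 listed had both null arrays above both wild-type arrays, against 22.6% of all tested genes. Their median log2 difference was 1.88. The summed signal of the 5 eosinophil genes with a probe was 453838 to 532926 units in the null arrays, against 110564 to 121248 units in the wild-type arrays. Most of this sum was Prg2 alone, with 398761 to 484706 units in the null arrays, against 92995 to 107959 units in the wild-type arrays. Among the eosinophil genes too dim to be tested, Ccr3 was below the array median on every array. Il5ra, named after its values were seen, read 1465 and 540 units in the null arrays, against 216 and 115 units in the wild-type arrays. All 5 tested monocyte genes of 8 listed were higher in the same sense (median 0.96), with summed signals of 91508 to 96925 units in the null arrays, against 43926 to 49622 units in the wild-type arrays. Of 7 tested basophil and mast cell genes, which bear on Ctsg, 4 had both null arrays below both wild-type arrays, against 23.1% of all tested genes, and 1, Hdc, had them above. The median log2 difference of the 7 was -0.55. The summed signal of the 8 listed genes with a probe was 618555 to 689185 units in the null arrays, against 818883 to 915822 units in the wild-type arrays. Most of that sum was Prss34, named after its values were seen. It read 419560 to 497800 units in the null arrays, against 544826 to 648767 units in the wild-type arrays. Cma1, a mast cell chymase, read 177 to 258 units on the 4 arrays, below the array median. In the same sense, 7 of 7 tested erythroid genes were lower (median -0.92), 4 of 4 megakaryocyte genes higher (0.78), 5 of 7 stem and progenitor genes higher (0.51) and 4 of 6 lymphoid genes higher (1.22). By limma 0 of the genes of these 7 marker lists passed. An unadjusted p under 0.05 was held by 16.5% of all tested genes. In these lists it was held by 3 of 3 eosinophil, 4 of 5 monocyte and 3 of 7 basophil and mast cell genes. The same held for 5 of 7 erythroid, 4 of 4 megakaryocyte, 3 of 7 stem and progenitor and 4 of 6 lymphoid genes.

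Genomic neighbours were compared as well. Of the 30 nearest tested genes in RefSeq order, up to 3 on each side of each gene, 0 passed limma, 8 had an unadjusted p under 0.05, against 16.5% of all tested genes, and 3 were higher by at least 2-fold in both lots, against 3.26% of all tested genes. Their median log2 difference was 0.10, and that of all tested genes was -0.02. Elane and Prtn3 are adjacent, and Plppr3, the next gene beyond Prtn3, read 8692 and 6698 units in the null arrays, against 3679 and 2472 units in the wild-type arrays (1.34, adjusted p = 0.148). Med16, the nearest tested gene on the far side of Elane, had a difference of -0.04. Beside Ctsg, the basophil protease gene Mcpt8 had -0.65 and the granzyme gene Gzmf -0.14. Mpo lies between Supt4a (-0.24) and Epx, eosinophil peroxidase, among tested genes. Epx read 36406 and 44702 units in the null arrays, against 9496 and 12568 units in the wild-type arrays (1.88, adjusted p = 0.0955). Ms4a3 stood between Ms4a2, the beta chain gene of the IgE receptor (-0.55), and Oosp1 (-0.48), and both had overlapping groups. Hp stood between Txnl4b (0.31) and Dhodh (-0.09). The third neighbour past 2-fold in both lots was Pkd1l3, beyond Dhodh (1.84, adjusted p = 0.153), singled out after its value was seen.

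**Figure D5:**
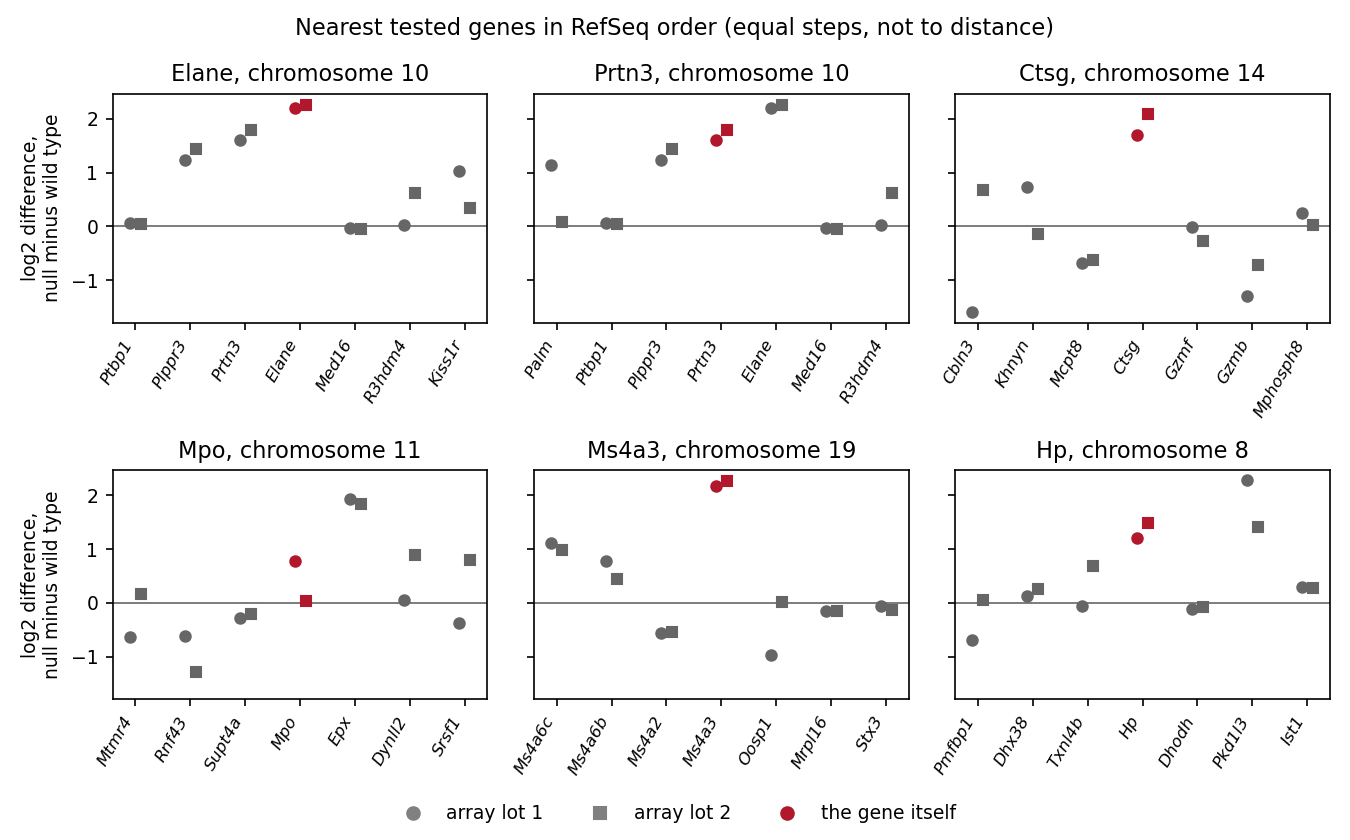
Log2 difference, null minus wild type (vertical axes), in lot 1 (circles) and lot 2 (squares) for each of the 6 genes (red, centre of its panel) and its 3 nearest tested genes on each side in RefSeq order (grey; steps are equal, not to distance). Plppr3, Epx and Pkd1l3 are the neighbours above 1 in both lots, and Med16, Dhodh and Mrpl16 lie near 0.

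The genes most like each of the 6 were found by the Euclidean distance between log2 values centred on their mean over the 4 arrays. Over only 4 arrays such likeness is a description. Elane and Ms4a3 were nearest to each other of all tested genes, at a distance of 0.05, and Prg2, the eosinophil major basic protein gene, came second for both (0.13 from Elane and 0.12 from Ms4a3). Prg2 read 484706 and 398761 units in the null arrays, against 107959 and 92995 units in the wild-type arrays. Nearest to Prtn3 were Nphp4, a ciliary gene (0.08), and Clec4e, the myeloid lectin Mincle (0.09). Ctsg was most like Ldhc, a lactate dehydrogenase gene (0.12), and Cfap57 (0.15), Mpo most like Dnah11 (0.07) and Ugt2b1 (0.10), and Hp most like Galk2 (0.04) and Hpgd (0.06).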

How the data were processed

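Labelled cRNA of lineage-negative marrow was measured on Applied Biosystems arrays with 1 colour, per the labels' protocols. The authors deposited linear intensity values of 33012 probes on 4 arrays. The sorted values of the 4 arrays differ by at most 0.286%, so the authors' deposited values had already been quantile normalized. Background correction is not given in the sources used here. With arrays, the number of hybridisations limits the precision.

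A floor was set at the 1st percentile (75.8 signal units), and log2 values were used from there. Probes in the upper 50% of mean log2 signal were kept, and of a gene's kept probes with 1 symbol the one with the highest mean signal was used. Genotype was tested over 8445 genes with the lmFit and eBayes functions of limma 3.58.1, run in R 4.3.3 (2 residual and 2.11 prior degrees of freedom), after a test on simulated data. The tables were made in Python 3.11.15 and the plots with matplotlib 3.10.9. The members, the 16 gene lists, the motifs and the tests were chosen with earlier results of these data known. Beside the 6 genes, the rule named all tested regulators, up to 2 genes per direction of each list by the smaller within-lot difference, genes past the test, the nearest neighbours and the 2 genes of most like pattern. The replicate number is the array lot, per the series text, so it pairs the arrays. The gaps between lots correlated over genes between genotypes (r = 0.503), and the lot was tried as a block. Over all probes, the Spearman correlation was highest for null array 2 with wild-type array 2, both of lot 2 (0.898). It was 0.863 between the null arrays, 0.861 between the wild-type arrays and 0.853 between the arrays of lot 1.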

Additional observations from a re-analysis of the deposited data

How the results depend on the processing

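The sign of the difference was the same under the 13 alternatives for all 6 genes. For Mpo it was 0.001 without null array 1, which gives no clear direction. None of the 6 was lost from a call, since 0 were called. Calls were gained by Elane (2.23; adjusted p = 0.00993 when only the brightest 25% of probes were used, and 0.00978 when limma fitted a variance trend), Prtn3 (1.69; 0.0132 and 0.0136), Ctsg (1.89; 0.0201 and 0.0186), Ms4a3 (2.21; 0.00975 and 0.00905) and Hp (1.35; 0.0247 and 0.0245), which made 5 called genes of the 6 under each of these settings. Over all alternatives the adjusted p of Mpo lay between 0.414 and 1.0. The count of genes called, 10 in the whole table, was 0 with the array lot as a replicate block (smallest adjusted p = 0.113), 0 without the filter on dim probes, 0 over all kept probes, 291 with the brightest 25% of probes, 295 with a variance trend and 0 to 0 with 1 array left out. The number of genes with an unadjusted p under 0.05 was 2055 with the block and 678 to 1438 with 1 array left out. The block changed no call of the 6 genes. The differences with 1 array left out ran from 0.001 to 0.81 for Mpo. The median of the protease inhibitors, 0.41, was 0.65 without the filter and 0.98 with the brightest 25% of probes. That of the specific granule genes was -3.40 with the brightest 25% of probes and -3.91 to -3.37 with 1 array left out, and that of the gelatinase granule and late neutrophil genes was -2.76 with the brightest 25% of probes. That of the regulators lay between 0.97 and 1.18 with 1 array left out. The cause of these shifts was not tested, except that the filters change how many genes enter a list. With 1 array left out, the lone array of its genotype was assumed to vary like the other genotype. The signal of a probe over background is unknown here, and no detection calls were used.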

Other observations

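Relatives of Ms4a3, Ctsg and Mpo gave values of their own. Of 14 listed MS4A family genes beside Ms4a3, 11 had a probe and 5 were tested. Of the 5, 0 passed limma and 2 had an unadjusted p under 0.05, against 16.5% of all tested genes. Their median log2 difference was 0.59, which was 0.27 without the filter on dim probes and 0.36 without wild-type array 1. Ms4a6c read 58787 and 68194 units in the null arrays, against 27284 and 34572 units in the wild-type arrays (log2 difference 1.04, adjusted p = 0.137), and Ms4a4c had a difference of 0.59 (adjusted p = 0.280). Ms4a1, the gene of the B cell antigen CD20, was too dim over the 4 arrays to be tested, yet read 68.0 and 143 units in the null arrays, against 1444 and 1767 units in the wild-type arrays. It was singled out after its values were seen, and it is not tested.

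Of 15 listed granzyme and mast cell protease genes, 4 were tested and 0 passed limma. At an unadjusted p under 0.05 were 3 of the 4, against 16.5% of all tested genes. The median log2 difference was -0.40, which turned to 0.35 without the filter on dim probes. Gzma, granzyme A, read 2480 and 2920 units in the null arrays, against 930 and 1321 units in the wild-type arrays (1.28, adjusted p = 0.130). Gzmb, granzyme B, read 799 and 1235 units in the null arrays, against 1966 and 2039 units in the wild-type arrays (-1.01, adjusted p = 0.212). Of 8 listed haem peroxidase genes and partners of haptoglobin, 3 were tested and 0 passed limma. An unadjusted p under 0.05 was held by 2 of the 3, against 16.5% of all tested genes. The median log2 difference of the 3 was -0.35. That median was -0.15 without the filter on dim probes and turned to 0.57 with the brightest 25% of probes. The haptoglobin-haemoglobin receptor gene Cd163 read 3309 and 2826 units in the null arrays, against 4867 and 5353 units in the wild-type arrays (-0.74, adjusted p = 0.196), and the haem oxygenase gene Hmox1 had a difference of -0.35 (adjusted p = 0.422).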
